A study of Danio rerio with 30 samples.

Results

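The comparison described here is of injured adult zebrafish (Danio rerio) retinas kept in PLX3397 with injured retinas kept in ZVAD-fmk. Its members are 6 of the 30 libraries of the series, 3 per drug, chosen by the titles that name the injury, the drug and a replicate number. All 6 libraries carry the genotype label WT. The injury was a poke with a needle that entered at the rear of the eye, the fish were immersed in water with the drug, and retinas were taken 2 days after the injury. The labels give neither the dose nor the vehicle of a drug. The same experiment holds 3 libraries of poked retinas from fish in DMSO and 3 of untreated, uninjured wild-type retinas, which share the estimate of the spread and whose levels are given beside the results. Fish lived on a daily light and dark cycle and were dark adapted overnight before dissection, and polyadenylated RNA was sequenced. Library titles include MG, an abbreviation often used for Müller glia, while the extraction notes describe isolated retinas and mention no cell sorting, so the values are read as levels in whole retina. Nothing in the labels says that replicate libraries were made from different fish, so the p-values speak only of the spread among libraries, which may be technical. The title of the study names the exchange between Müller glia and microglia during regeneration, and the labels give no separate purpose for setting one drug against the other.

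PLX3397 (pexidartinib) is a kinase inhibitor of the receptor for colony-stimulating factor 1, Csf1r, on whose signal microglia and macrophages depend, and it also inhibits the related kinases Kit and Flt3. ZVAD-fmk is a cell-permeable, irreversible inhibitor of many caspases, the proteases that carry out apoptosis. In zebrafish, Müller glia, the radial glia of the retina, answer injury by reprogramming, re-entering the cell cycle and giving rise to progenitors that replace lost neurons. Microglia are the resident phagocytes of the retina and gather at the injury.

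Total counts were 54389583, 55365523 and 44633053 in PLX3397 replicates 1, 2 and 3, and 61222563, 54816393 and 56735328 in the ZVAD-fmk replicates. Retinal cells were present in all 6 libraries by their defining genes: GNAT1, the transducin of rods, lay between 118.7 and 297 CPM (counts scaled to a common library total) and the Müller glia gene rlbp1a between 1130 and 1265 CPM. Over these 6 libraries the first principal component, with 36.1% of the variance, placed the PLX3397 libraries on one side and the ZVAD-fmk libraries on the other. The second, with 27.3%, set PLX3397 replicate 2 apart from the other 5. ZVAD-fmk replicates 2 and 3 were the most alike pair. DMSO replicate 3 also stood apart from its group, with a mean log2 CPM of 4.54 over the microglia and macrophage genes against 2.35 and 2.34 in the other DMSO libraries. The transgene egfp had counts in all 12 libraries, at 287 to 440 CPM with PLX3397 and 431 to 436 CPM with ZVAD-fmk, although no label names a transgene.

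Of 21334 genes tested, 1758 differed between the drugs (edgeR quasi-likelihood test over the 12 libraries, Benjamini-Hochberg adjusted p under 0.05), which is 8.24% of the genes tested. Expression was higher with PLX3397 for 732 of them (3.43%) and higher with ZVAD-fmk for 1026 (4.81%). Most differences were small: 275 of the 1758 were at least 2-fold, 150 of these higher with PLX3397 and 125 higher with ZVAD-fmk, and the median size over called genes was 0.68 on the log2 scale. The median log2 fold change over all genes tested, always PLX3397 minus ZVAD-fmk, was 0.01, and the middle 50% of genes lay between -0.30 and 0.35. The 3 libraries of one drug lay wholly above the 3 of the other for 35.5% of all genes tested, of which 16.8% of genes were above with PLX3397 and 18.7% with ZVAD-fmk.

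The count of called genes depended on single libraries. It was 756, 2590 and 503 without PLX3397 replicates 1, 2 and 3, and 341, 282 and 403 without ZVAD-fmk replicates 1, 2 and 3. Without a control library it was 2645 (DMSO replicate 3), 1337 and 1383 (DMSO replicates 1 and 2), and 1548, 2248 and 1281 (uninjured replicates 1, 2 and 3). Counts below that leave out drug libraries are given in this order, PLX3397 replicates 1, 2 and 3, then ZVAD-fmk replicates 1, 2 and 3. The share of called genes that were higher with PLX3397, 41.6%, became 53.4% without ZVAD-fmk replicate 1 and 52.5% without DMSO replicate 3 and uninjured replicate 2, a setting added after the values were seen.

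**Figure D1:**
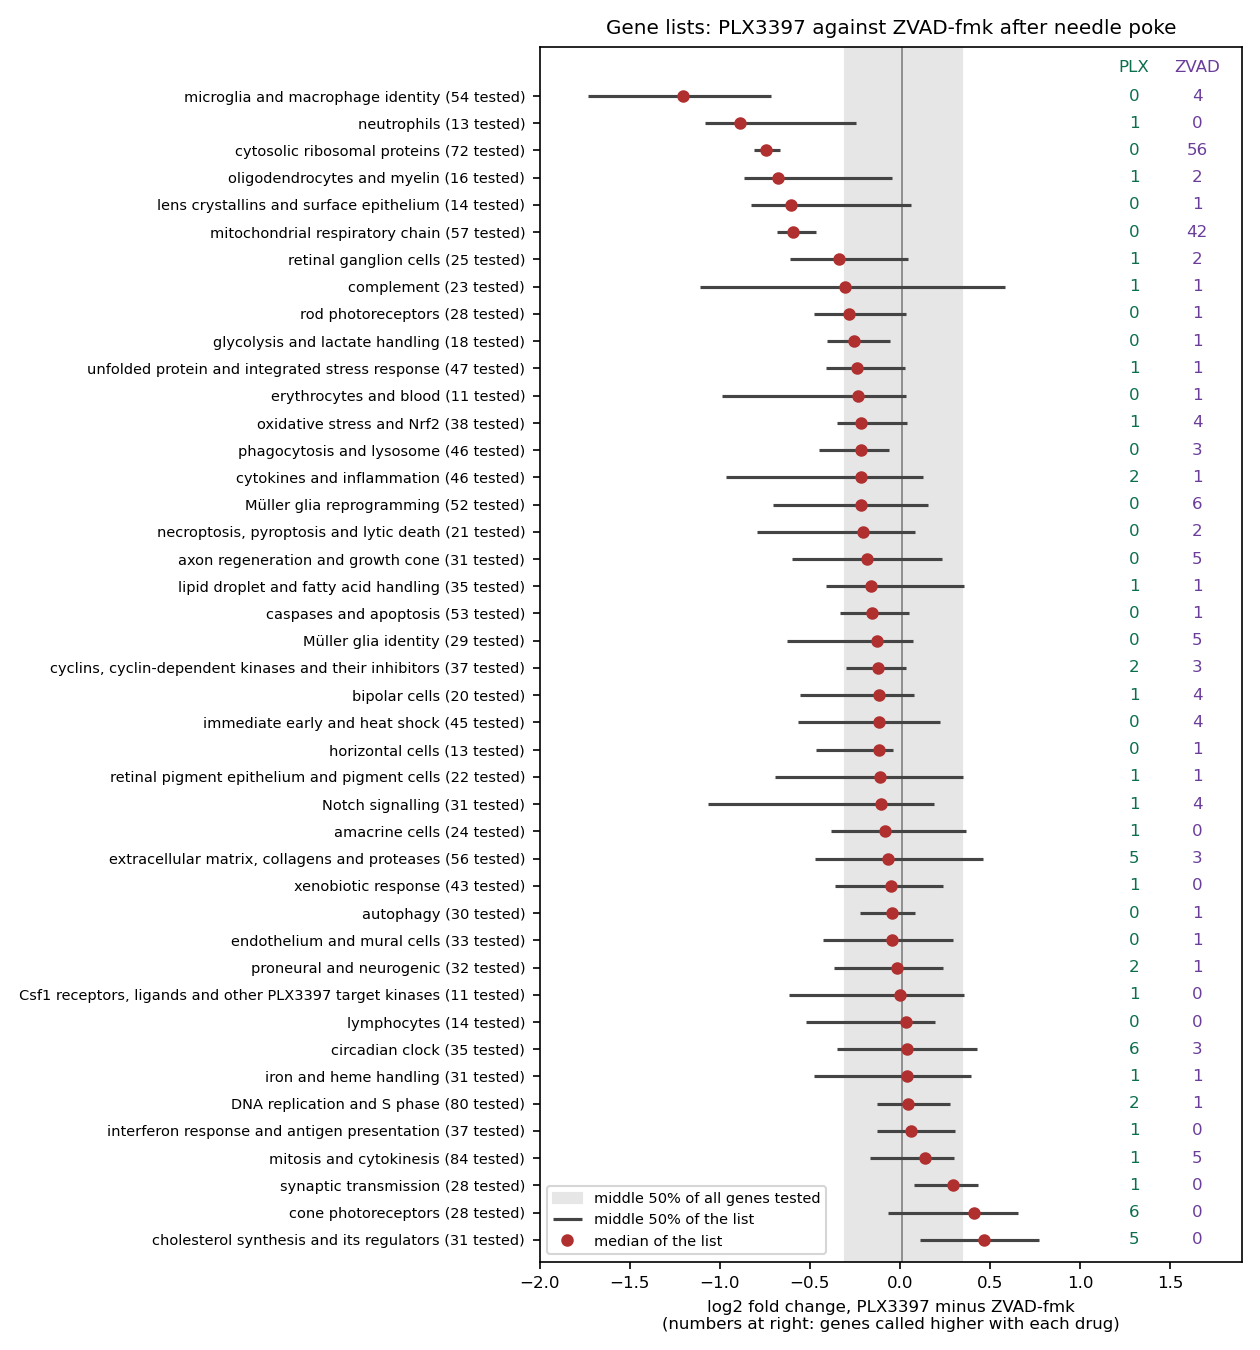
Median log2 fold change, PLX3397 minus ZVAD-fmk, of 43 gene lists (points) with the middle 50% of each list (lines) and of all genes tested (grey band); the numbers at the right count the genes called higher with each drug. The microglia and macrophage list has the lowest median, -1.20, ribosomal proteins (56 called) and respiratory chain genes (42 called) hold the most calls, and cholesterol synthesis has the highest median, 0.47.

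Receptors for colony-stimulating factor 1 were lower with PLX3397 in every library pair, but neither passed the test. The paralog csf1ra, which microglia and pigment cells use, was at 3.54, 5.83 and 6.88 CPM with PLX3397 and 12, 13.4 and 14.3 CPM with ZVAD-fmk, against 10.8, 6.7 and 34 CPM with DMSO and 4.34, 9.82 and 3.72 CPM in uninjured retina (log2 fold change -1.29, SE 0.51, edgeR adjusted p = 0.14). Its groups did not overlap, and the 95% interval of the log2 difference ran from -2.40 to -0.18. The paralog csf1rb was under 1 CPM in all 6 drug libraries (log2 fold change -1.10, SE 0.71, edgeR adjusted p = 0.39). Of the 11 genes of the list of Csf1 receptors, their ligands and other kinases that PLX3397 inhibits, 1 was called. That gene, KIT (ENSDARG00000043317), the receptor of stem cell factor, was higher with PLX3397, at 18.8, 25.2 and 25.3 CPM against 15.5, 14.5 and 16.9 CPM (log2 fold change 0.56, SE 0.14, edgeR adjusted p = 0.030). DMSO libraries held 6.99, 7.17 and 7.44 CPM of it. The called share of the list was 9.09%, against 3.43% of all genes higher with PLX3397. With drug libraries left out in the order above, the list had 1, 1, 0, 0, 0 and 0 calls.

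Most genes of microglia and macrophages had lower levels with PLX3397 than with ZVAD-fmk, and few passed the test. Of 54 such genes tested, 49 had a negative log2 fold change, all 3 ZVAD-fmk libraries lay above all 3 PLX3397 libraries for 41, and 1 lay the other way. Over all genes, 18.7% and 16.8% lay in these directions. The median of the list was -1.20, against 0.01 for all genes. The test called 4, all higher with ZVAD-fmk, and 50 did not pass. The called share of 7.41% is near the 4.81% of all genes. The mean log2 CPM over the list was 0.92, 1.27 and 1.58 in the PLX3397 libraries and 2.52, 2.33 and 2.32 in the ZVAD-fmk libraries. It was 2.35, 2.34 and 4.54 with DMSO, so ZVAD-fmk libraries were near DMSO replicates 1 and 2, and 0.92, 1.5 and 0.93 in uninjured retina, so the PLX3397 libraries overlapped the uninjured ones. In these bulk samples, fewer microglia and less of these RNAs per microglial cell cannot be told apart.

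The 4 called microglial genes were mrc1b, havcr1, c1qc and lgals3bp.1. The mannose receptor gene mrc1b, an endocytic receptor of macrophages, was at 5.34, 7.64 and 5.8 CPM with PLX3397 and 27.3, 27.07 and 25.5 CPM with ZVAD-fmk, 4.25-fold higher with ZVAD-fmk (log2 fold change -2.09, SE 0.53, edgeR adjusted p = 0.030). With DMSO it was at 15.4, 14.1 and 74.1 CPM. The ZVAD-fmk libraries were tightly grouped and none came near a PLX3397 library. The gene lgals3bp.1, which encodes a galectin-3-binding protein, was at 6.42, 6.4 and 7.69 CPM against 26.2, 27.6 and 25.4 CPM (log2 fold change -1.95, SE 0.47, edgeR adjusted p = 0.026). Here both drugs were below all 3 DMSO libraries, which held 60.6, 55.3 and 262 CPM. Levels of c1qc, a chain of the complement starter C1q, were 0.622, 1.18 and 1.51 CPM with PLX3397 and 4.74, 3.78 and 4.36 CPM with ZVAD-fmk (log2 fold change -1.97, SE 0.54, edgeR adjusted p = 0.042). The havcr1 gene, a receptor that in mammals binds phosphatidylserine on dying cells, was at 0.311, 0.356 and 0.854 CPM against 2.84, 2.34 and 3.19 CPM (log2 fold change -2.47, SE 0.69, edgeR adjusted p = 0.044). The drug groups did not overlap for any of the 4 genes, which also held for 1754 of all 1758 called genes.

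The number of calls in this list changed with the libraries in the fit. With any 1 of the 6 drug libraries left out, 0, 1, 0, 0, 0 and 0 genes were called, and the 1 call was higher with PLX3397, so no call higher with ZVAD-fmk was left in any of these fits. The median stayed between -0.97 and -1.37. With no low-count filter 0 of 57 were called, and limma voom called 1 higher with each drug. Without DMSO replicate 3 the test called 25 of 54 higher with ZVAD-fmk and 1 higher with PLX3397. In that fit 1458 and 1187 of all 22010 genes tested were called in these directions. A fit of the 6 drug libraries alone called 23 of 53 higher with ZVAD-fmk and 1 higher with PLX3397, where 5.25% and 5.26% of all genes were called in these directions. Among genes that did not pass, apoeb, the abundant apolipoprotein E of both microglia and Müller glia, was at 9918, 14833 and 13342 CPM against 16657, 16319 and 16197 CPM (log2 fold change -0.37, SE 0.22, edgeR adjusted p = 0.36). For markers of blood, the mean log2 CPM of 11 erythrocyte and blood genes was 1.14, 1.16 and 1.00 with PLX3397 and 2.07, 1.62 and 1.86 with ZVAD-fmk. Of these 11 genes, 1 was called, higher with ZVAD-fmk, and the median log2 fold change was -0.23. The called share was 9.09%, against 4.81% of all genes. The log2 fold change was negative for 7, and the groups overlapped for 7. ZVAD-fmk libraries lay above for 3 and PLX3397 libraries for 1, where they did for 18.7% and 16.8% of all genes. The hemoglobin gene hbaa1 was at 8.61, 9.71 and 4.71 CPM against 39.3, 25 and 26.9 CPM (log2 fold change -1.98, SE 0.69, edgeR adjusted p = 0.097). The part of blood in the macrophage difference was not tested.

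**Figure D2:**
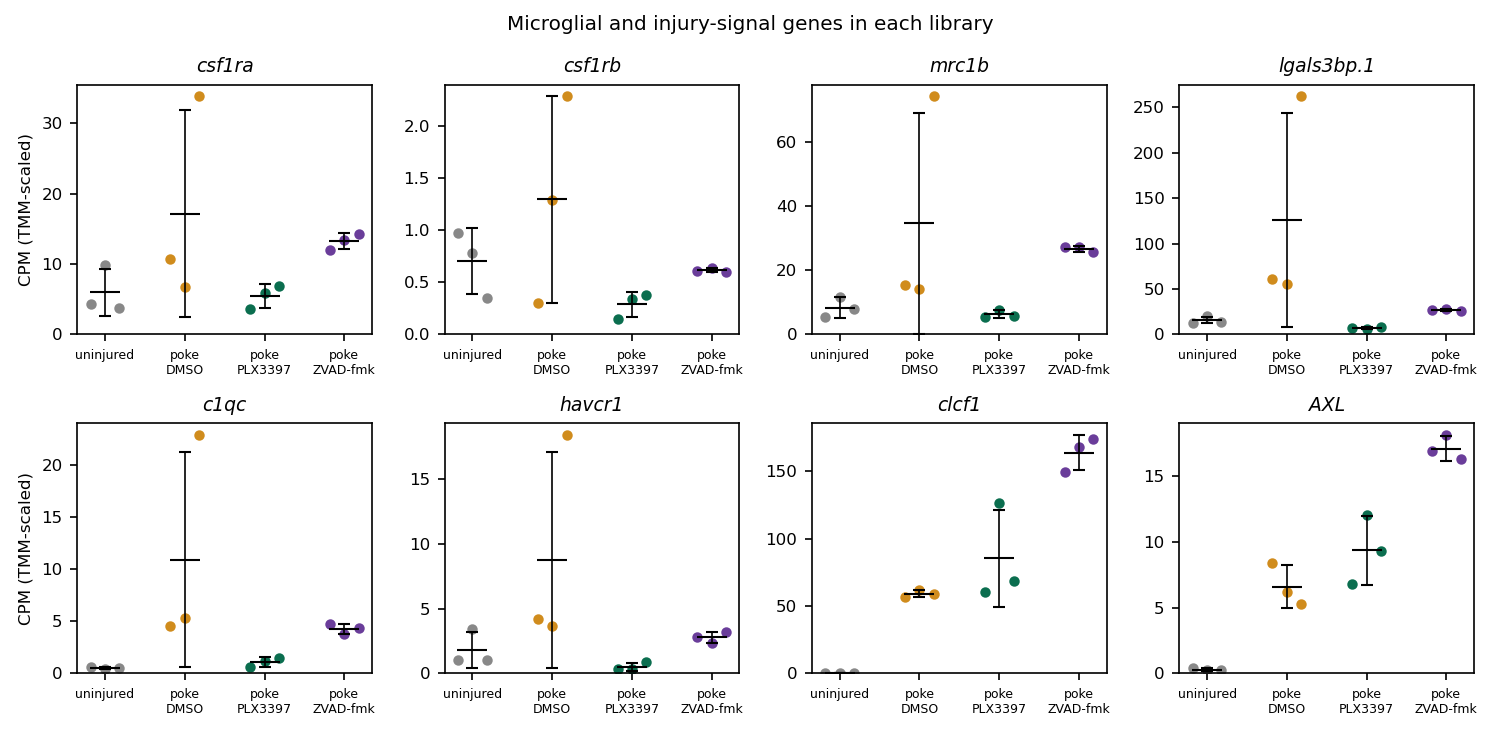
CPM of 8 genes in each library (points) with the mean and SD of each group of 3 (bars), in uninjured, poke DMSO, poke PLX3397 and poke ZVAD-fmk retinas. For mrc1b the PLX3397 libraries sit between 5.34 and 7.64 CPM and the ZVAD-fmk libraries between 25.5 and 27.3 CPM, and DMSO replicate 3 stands far above its group for csf1ra, mrc1b, lgals3bp.1, c1qc and havcr1.

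Genes of engulfment and lysosomes gave few calls. Of 46 tested, 3 were called, all higher with ZVAD-fmk, a share of 6.52% near the 4.81% of all genes, and the median was -0.22. ZVAD-fmk libraries lay above for 16 genes and PLX3397 libraries for 2, where they did for 18.7% and 16.8% of all genes. The receptor tyrosine kinase AXL, which lets phagocytes bind dying cells, was at 6.76, 12 and 9.26 CPM with PLX3397 and 16.9, 18.1 and 16.2 CPM with ZVAD-fmk (log2 fold change -0.87, SE 0.23, edgeR adjusted p = 0.037). DMSO libraries held 8.37, 6.15 and 5.27 CPM of it and uninjured retina 0.38, 0.236 and 0.244 CPM. The annexin gene anxa5b, whose product binds phosphatidylserine, was at 9.56, 6.84 and 5.94 CPM against 14.2, 16 and 15.5 CPM (log2 fold change -1.03, SE 0.22, edgeR adjusted p = 0.016), and lamp1b, a lysosomal membrane protein, at 56, 63.7 and 59.8 CPM against 77.5, 79.9 and 76.7 CPM (log2 fold change -0.38, SE 0.09, edgeR adjusted p = 0.026). Groups were separate for these 3 genes, as for 1754 of all 1758 called genes. Leaving out drug libraries in the order above gave 1, 9, 1, 0, 0 and 0 calls.

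Complement genes gave 2 calls in 23, 1 in each direction. Each share was 4.35%, against 3.43% of all genes higher with PLX3397 and 4.81% higher with ZVAD-fmk. Leaving out drug libraries in order gave 0, 2, 0, 0, 0 and 0 calls, and medians from -0.55 to 0.05. The gene c1qc was higher with ZVAD-fmk and c3b.2, one of several near-identical copies of component C3, was higher with PLX3397. It was at 11.6, 14 and 11.2 CPM with PLX3397 and 3.75, 7.48 and 6.48 CPM with ZVAD-fmk (log2 fold change 1.06, SE 0.30, edgeR adjusted p = 0.050), and because such copies share reads its value is uncertain. The terminal component c7b, abundant after the poke, was at 4216, 8646 and 4735 CPM and 9722, 8264 and 8252 CPM with overlapping groups (log2 fold change -0.58, SE 0.26, edgeR adjusted p = 0.20), against 2125, 2036 and 2928 CPM with DMSO and 18.8, 24.3 and 21.6 CPM in uninjured retina.

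Among 46 genes of cytokines and inflammation, 3 were called. Higher with PLX3397 were 2 (4.35%) and with ZVAD-fmk 1 (2.17%), against 3.43% and 4.81% of all genes. The gene clcf1, a cytokine of the interleukin 6 family that signals through Jak and Stat3, was at 60.6, 127 and 68.6 CPM with PLX3397 and 149, 168 and 174 CPM with ZVAD-fmk (log2 fold change -0.94, SE 0.23, edgeR adjusted p = 0.025). It was at 56.3, 61.5 and 59 CPM with DMSO and almost absent from uninjured retina. PLX3397 replicate 2 lay well above its group, still below all ZVAD-fmk libraries. The kinase gene jak2a was slightly higher with PLX3397, at 42.2, 54.9 and 41.8 against 35.7, 33.7 and 33.4 CPM (log2 fold change 0.43, SE 0.12, edgeR adjusted p = 0.047). Expression of tnfaip2b, a gene first known as induced by tumour necrosis factor in mammals, was 3.37-fold higher with PLX3397, at 8.07, 12.2 and 12 CPM against 4.83, 2.45 and 2.3 CPM (log2 fold change 1.75, SE 0.47, edgeR adjusted p = 0.040). Leaving out drug libraries gave 1, 4, 0, 0, 0 and 0 calls in this list, and a replicate block 1. Of 37 interferon and antigen presentation genes 1 was called, higher with PLX3397, a share of 2.7% against 3.43% of all genes. It was the antiviral GTPase gene mxc, at 3.95, 3.94 and 4.05 CPM with PLX3397 and 0.579, 0.403 and 0.423 CPM with ZVAD-fmk (log2 fold change 3.08, SE 0.78, edgeR adjusted p = 0.031).

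Cell death genes gave few calls. Of 53 genes of caspases and apoptosis, 1 was called, higher with ZVAD-fmk, a share of 1.89% against 4.81% of all genes. ZVAD-fmk libraries lay above for 12 and PLX3397 libraries for 4, where they did for 18.7% and 16.8% of all genes. The median was -0.15. Without the 4 libraries that stood apart (DMSO replicate 3, PLX3397 replicate 2, ZVAD-fmk replicate 1 and uninjured replicate 2), 3 were called higher with PLX3397 and 7 higher with ZVAD-fmk. In that fit 2741 and 2939 of all 21560 genes tested were called in these directions. The 4 libraries were chosen by how they lay in these same data, which narrows the spread, so calls of that fit are not a fair test. The gene called with all 12 libraries, cycsb, encodes a cytochrome c, which serves both the respiratory chain and apoptosis. It was at 98.5, 138 and 87.3 CPM with PLX3397 and 219, 166 and 174 CPM with ZVAD-fmk (log2 fold change -0.78, SE 0.18, edgeR adjusted p = 0.022). The initiator caspase gene casp8 was at 10.2, 24.3 and 14.7 against 16.6, 13.6 and 14.2 CPM, with PLX3397 replicate 2 the highest and an interval of the log2 difference from -0.59 to 0.88 (log2 fold change 0.15, SE 0.34, edgeR adjusted p = 0.86). For CASP9, the initiator of the mitochondrial route, the values were 8.35, 9.67 and 6.16 and 10.2, 6.74 and 7.88 CPM (log2 fold change -0.04, SE 0.25, edgeR adjusted p = 0.95). A p that misses the threshold does not show that the drugs act alike on these genes. In the list of 21 genes of necroptosis, pyroptosis and lytic death, 2 were called, a share of 9.52% against 4.81% of all genes. Both encode chromatin proteins that act as alarm signals when released by dying cells. Of these, hmgb1a was at 475, 418 and 463 CPM with PLX3397 and 788, 780.0 and 782 CPM with ZVAD-fmk (log2 fold change -0.79, SE 0.12, edgeR adjusted p = 0.0038), and hmgb1b at 191, 178 and 197 against 263, 258 and 263 CPM (log2 fold change -0.47, SE 0.12, edgeR adjusted p = 0.031). The call of hmgb1a held in all 23 alternative fits.

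Cell division genes gave few calls between the drugs, and both drugs held far lower levels of the best known of them than the DMSO libraries. The proliferation marker mki67 was at 26.2, 30.1 and 22.3 CPM with PLX3397 and 24.7, 19.7 and 22 CPM with ZVAD-fmk, against 206, 210.2 and 239 CPM with DMSO and 7.08, 6.61 and 7.41 CPM in uninjured retina. Between the drugs its groups overlapped (log2 fold change 0.24, SE 0.13, edgeR adjusted p = 0.29), and the 95% interval of the log2 difference ran from -0.04 to 0.52. The mitotic kinase gene CDK1 was at 3.88, 3.67 and 2.4 and 4.93, 3.41 and 3.5 CPM (log2 fold change -0.25, SE 0.20, edgeR adjusted p = 0.52), with DMSO at 64.9, 61.8 and 72.5 CPM. Of 84 genes of mitosis and cytokinesis, 6 were called, 1 higher with PLX3397 and 5 higher with ZVAD-fmk, shares of 1.19% and 5.95% against 3.43% and 4.81% of all genes. The median of this list was 0.14, and the groups overlapped for 65 of 84 genes. Over all genes, 35.5% had separate groups.

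The called mitotic genes higher with ZVAD-fmk were CCNB1, NUSAP1, ASPM, CDC20 and CENPF, which act in entry to mitosis, the spindle, chromosome segregation and the kinetochore. CCNB1, cyclin B1, was at 1.51, 1.6 and 1.55 CPM with PLX3397, 2.91, 3.09 and 2.21 CPM with ZVAD-fmk and 46.4, 43.8 and 45.9 CPM with DMSO (log2 fold change -0.82, SE 0.20, edgeR adjusted p = 0.025). Its drug difference of about 1 CPM stands beside DMSO levels above 40 CPM. The spindle gene ASPM was at 1.47, 2.23 and 2.64 against 3.57, 4.22 and 3.47 CPM (log2 fold change -0.83, SE 0.22, edgeR adjusted p = 0.036). In the other direction, kif20ba, a kinesin of cytokinesis, was at 8.82, 14.5 and 9.3 CPM with PLX3397 and 6.46, 5.36 and 5.83 CPM with ZVAD-fmk (log2 fold change 0.88, SE 0.21, edgeR adjusted p = 0.023). None of the 5 calls higher with ZVAD-fmk was left under limma voom or with the 6 drug libraries alone, where 1 gene, higher with PLX3397, was called. The calls were also sensitive to single libraries: 1, 7, 2, 0, 0 and 1 genes were called with the drug libraries left out in order. The median of the list was -0.10 without PLX3397 replicate 2, a sign opposite to that with it.

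DNA replication genes gave 3 calls in 80, with a median of 0.04. The shares higher with PLX3397 and ZVAD-fmk were 2.5% and 1.25%, against 3.43% and 4.81% of all genes. E2F8, a repressor of the cell cycle program, was at 10.9, 12.8 and 9.28 CPM with PLX3397, 7.27, 7.31 and 6.38 CPM with ZVAD-fmk and 37.4, 38.1 and 38.9 CPM with DMSO (log2 fold change 0.65, SE 0.16, edgeR adjusted p = 0.026). The helicase gene blm was also higher with PLX3397 (log2 fold change 0.68, SE 0.19, edgeR adjusted p = 0.044), and tipin, which protects replication forks, was lower, at 8.79, 9.9 and 9.44 against 13.3, 15 and 15.7 CPM (log2 fold change -0.65, SE 0.16, edgeR adjusted p = 0.029). PCNA, the sliding clamp, was at 137, 233 and 154 and 199, 182 and 177 CPM, with a difference within the spread of the PLX3397 libraries (log2 fold change -0.09, SE 0.19, edgeR adjusted p = 0.84). MCM5, part of the replicative helicase, was at 65.1, 115 and 78.3 and 102, 98.2 and 98 CPM (log2 fold change -0.21, SE 0.21, edgeR adjusted p = 0.61), with DMSO at 111, 112 and 132 CPM and uninjured retina at 2.47, 1.6 and 3.01 CPM.

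Among 37 cyclins, cyclin-dependent kinases and their inhibitors, 5 were called, 2 higher with PLX3397 and 3 higher with ZVAD-fmk. These shares of 5.41% and 8.11% stand beside 3.43% and 4.81% of all genes. The inhibitor cdkn1ca (p57) had the most marked difference, at 0.9, 0.445 and 0.815 CPM with PLX3397 and 2.76, 2.35 and 2.95 CPM with ZVAD-fmk, 3.72-fold higher with ZVAD-fmk (log2 fold change -1.90, SE 0.32, edgeR adjusted p = 0.0066), and the call held in all 23 alternative fits. CCNF was higher with PLX3397, at 7.14, 6.47 and 5.31 against 4.03, 4.52 and 3.26 CPM (log2 fold change 0.68, SE 0.18, edgeR adjusted p = 0.037). So was RBL2, a pocket protein that holds cells in quiescence, at 54, 44 and 50.1 against 35.3, 37.5 and 38.2 CPM (log2 fold change 0.42, SE 0.12, edgeR adjusted p = 0.049). The inhibitor cdkn1a (p21) was at 58.8, 65.9 and 79.8 CPM with PLX3397 and 132, 121 and 116 CPM with ZVAD-fmk (log2 fold change -0.85, SE 0.22, edgeR adjusted p = 0.035), and all PLX3397 libraries were below the 175, 186 and 115 CPM of DMSO and the 198, 107 and 174 CPM of uninjured retina. The cdkn1a call was lost with any 1 drug library left out. CCNB1 was the other call. With library totals, the 6 drug libraries alone or a replicate block, the list had 3 calls.

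**Figure D3:**
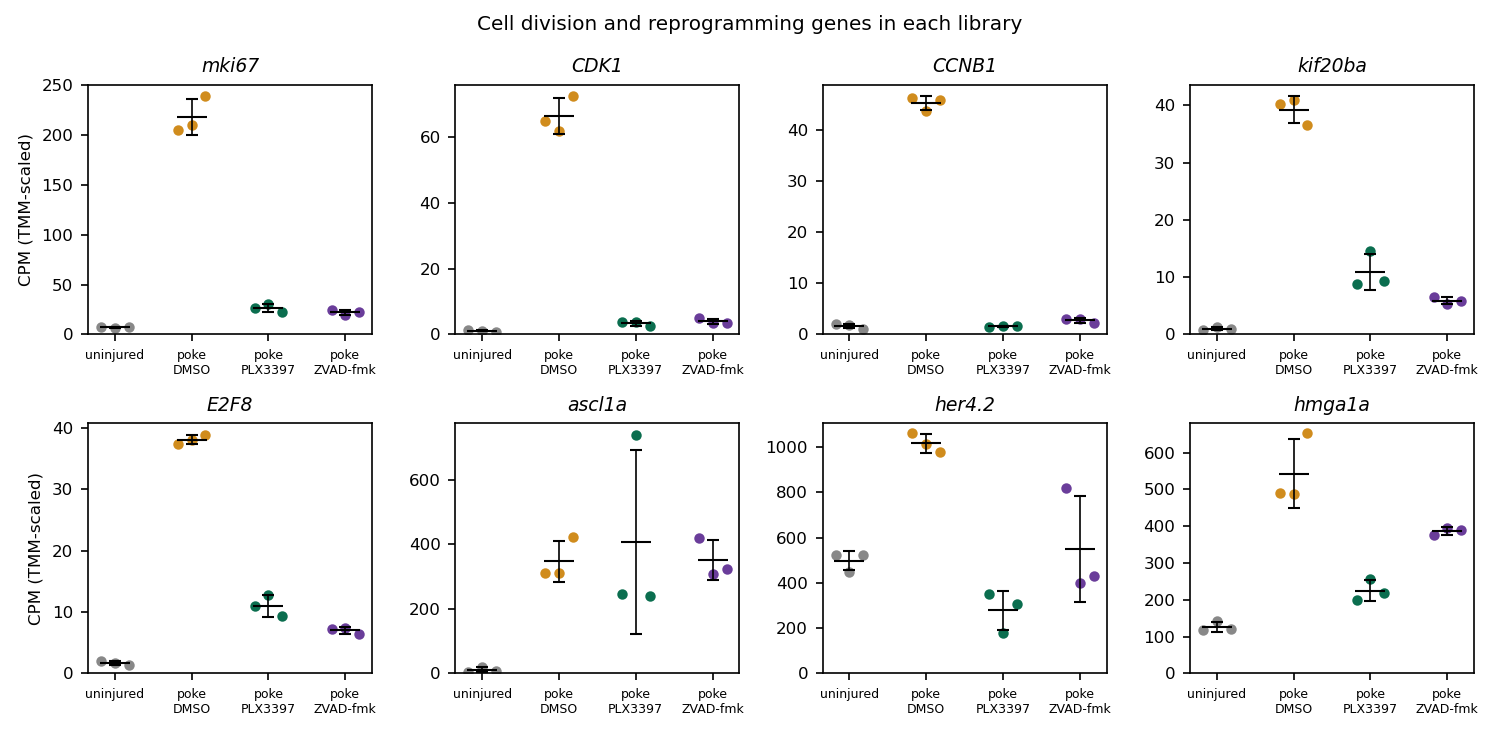
CPM of 8 genes of cell division and reprogramming in each library (points) with the mean and SD of each group of 3 (bars). Both drug groups sit far below DMSO for mki67, CDK1 and CCNB1, while the 2 drug groups overlap for mki67, CDK1 and ascl1a and are separate for hmga1a and her4.2.

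Müller glia reprogramming genes gave 6 calls in 52, all higher with ZVAD-fmk, a share of 11.5% against 4.81% of all genes. The median was -0.21. The chromatin protein gene hmga1a was at 200.2, 256 and 218 CPM with PLX3397, 376, 394 and 391 CPM with ZVAD-fmk and 489.7, 487 and 652 CPM with DMSO (log2 fold change -0.78, SE 0.15, edgeR adjusted p = 0.010). The sheddase gene adam10a was at 119.2, 178 and 129 against 219, 209.6 and 211 CPM (log2 fold change -0.58, SE 0.15, edgeR adjusted p = 0.037). TUBA1A, a tubulin of growing neurites and reprogramming glia, was at 125, 136 and 133 against 206, 195 and 194 CPM (log2 fold change -0.60, SE 0.12, edgeR adjusted p = 0.014). The other calls were clcf1, the chaperonin HSPD1 and the neuronal tubulin-binding gene STMN4 (ENSDARG00000043932), at -0.56 and -0.89 log2 for the last pair.

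The genes best known for reprogramming did not pass the test. The proneural factor ascl1a was at 245, 738 and 238 CPM with PLX3397 and 421, 309 and 323 CPM with ZVAD-fmk, so PLX3397 replicate 2 alone was above the ZVAD-fmk libraries (log2 fold change 0.21, SE 0.48, edgeR adjusted p = 0.85). Its log2 fold change was -0.54 without that library. LIN28A (ENSDARG00000016999), an RNA-binding protein that blocks let-7 microRNAs, was at 73.2, 150.4 and 64.5 and 147, 164 and 175 CPM (log2 fold change -0.76, SE 0.53, edgeR adjusted p = 0.43). STAT3, the transcription factor downstream of clcf1, was at 137, 167 and 152 and 189, 169 and 162 CPM (log2 fold change -0.19, SE 0.13, edgeR adjusted p = 0.43). With drug libraries left out in order, 3, 11, 1, 1, 0 and 1 genes of the list were called.

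Notch target genes of the her4 cluster were lower with PLX3397. These repressors hold Müller glia and progenitors undifferentiated, and the neighbouring copies are so alike that reads shared between them make each single value uncertain. The copy her4.2 was at 349, 179.9 and 306 CPM with PLX3397 and 820.1, 401 and 429 CPM with ZVAD-fmk, with DMSO at 1061, 1013 and 977 CPM and uninjured retina at 523, 449 and 524 CPM (log2 fold change -0.98, SE 0.27, edgeR adjusted p = 0.044). The copies her4.3 (6.07, 1.59 and 4.35 against 21.3, 8.41 and 10.1 CPM, log2 fold change -1.73, SE 0.45, edgeR adjusted p = 0.035) and her4.4 (30.1, 10.6 and 16.8 against 97.2, 36.6 and 37.5 CPM, log2 fold change -1.58, SE 0.39, edgeR adjusted p = 0.029) were lower too. In all 3 copies ZVAD-fmk replicate 1 was far above the other ZVAD-fmk libraries and PLX3397 replicate 2 was the lowest of its group. The Notch ligand DLD was lower with PLX3397, at 98.6, 121 and 104 against 148, 146 and 143 CPM (log2 fold change -0.43, SE 0.12, edgeR adjusted p = 0.039), while NUMB, an antagonist of Notch, was higher, at 51.5, 51.3 and 49.1 against 33.5, 36 and 37.8 CPM (log2 fold change 0.50, SE 0.11, edgeR adjusted p = 0.015). The list of 31 Notch genes had 5 calls. Its shares higher with PLX3397 and ZVAD-fmk were 3.23% and 12.9%, against 3.43% and 4.81% of all genes. The list had 5, 3, 0, 0, 0 and 1 calls with the drug libraries left out in order. With no low-count filter it had 2, and with the 6 drug libraries alone 3.

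Proneural and neurogenic genes gave 3 calls in 32, with a median of -0.01. The shares higher with PLX3397 and ZVAD-fmk were 6.25% and 3.125%, against 3.43% and 4.81% of all genes. NEUROD1, a differentiation factor of photoreceptors and amacrine cells, was at 269, 236 and 214 CPM with PLX3397 and 109, 140.5 and 148 CPM with ZVAD-fmk (log2 fold change 0.85, SE 0.13, edgeR adjusted p = 0.0043), a call that held in all 23 alternative fits. DMSO, at 194, 194 and 202 CPM, lay between the drugs. The gene prdm1b was at 5.5, 3.49 and 4.85 against 2.5, 2.5 and 2 CPM (log2 fold change 0.98, SE 0.23, edgeR adjusted p = 0.021), and DLD was the third call.

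Among 29 Müller glia identity genes, 5 were called, all lower with PLX3397, a share of 17.2% against 4.81% of all genes. The median was -0.13. The S100 gene icn was at 33.5, 44.4 and 28.3 CPM with PLX3397 and 66.6, 85.5 and 81.6 CPM with ZVAD-fmk (log2 fold change -1.14, SE 0.23, edgeR adjusted p = 0.014). The carbonic anhydrase ca2, which handles bicarbonate in glia, was at 10.4, 11.06 and 5.98 against 17.9, 18.6 and 19.8 CPM (log2 fold change -1.04, SE 0.20, edgeR adjusted p = 0.012). The prostaglandin D synthase copies ptgdsb.1 and ptgdsb.2 were lower by -1.04 and -0.66 on the log2 scale, and CAV1, the scaffold of caveolae, by -0.75. The defining genes rlbp1a, which carries retinaldehyde, and GFAP, the glial filament, were not called: rlbp1a was at 1146, 1245 and 1265 and 1238, 1147 and 1129.7 CPM (log2 fold change 0.06, SE 0.17, edgeR adjusted p = 0.90), and GFAP at 471, 705 and 624 and 836, 709 and 702 CPM (log2 fold change -0.32, SE 0.20, edgeR adjusted p = 0.36). Left-out drug libraries gave 2, 6, 1, 2, 0 and 0 calls.

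Among cone photoreceptor genes, the called ones were higher with PLX3397. Of 28 tested, 6 were called, all higher with PLX3397, a share of 21.4% against 3.43% of all genes, and the median was 0.41. The other 22 did not pass. In the whole list the groups overlapped for 17 genes, and 7 had a negative log2 fold change. Over all genes tested, the groups were separate for 35.5%. The mean log2 CPM over the list was 5.86, 5.46 and 5.77 with PLX3397 and 5.02, 5.58 and 5.52 with ZVAD-fmk, so PLX3397 replicate 2 lay below ZVAD-fmk replicates 2 and 3, and the median was 0.27 without ZVAD-fmk replicate 1. This mean was 6.91, 6.91 and 6.60 with DMSO and 6.76, 6.78 and 6.80 in uninjured retina. Every library of both drugs lay below these controls. The green opsin opn1mw2 was at 287, 229.9 and 423 CPM with PLX3397 and 54.9, 89.2 and 82.5 CPM with ZVAD-fmk, a 4.14-fold difference (log2 fold change 2.05, SE 0.24, edgeR adjusted p = 0.0018). DMSO libraries held 506, 489 and 353 CPM and uninjured ones 255, 281 and 278 CPM, so the ZVAD-fmk libraries were the low ones. Its tandem neighbour opn1mw1 was at 48.3, 17.3 and 37.9 against 6.53, 9.08 and 7.28 CPM (log2 fold change 2.18, SE 0.28, edgeR adjusted p = 0.0022), below DMSO at 72.5, 74.6 and 73.4 CPM with both drugs. These copies are nearly identical in sequence, so reads can be shared between them. The short-wave opsin OPN1SW, which was not in the list, was at 49.6, 51.7 and 70.0 CPM with PLX3397, 12.4, 16.7 and 19.4 CPM with ZVAD-fmk and 37.5, 42 and 54.4 CPM with DMSO (log2 fold change 1.82, SE 0.27, edgeR adjusted p = 0.0036). The calls of these 3 opsins held in all 23 alternative fits.

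The remaining opsins differed less or not at all by the test. The red opsin opn1lw2 was at 60.8, 43.1 and 58.3 CPM with PLX3397 and 27.3, 37.9 and 33.5 CPM with ZVAD-fmk (log2 fold change 0.72, SE 0.17, edgeR adjusted p = 0.022), and both drugs were far below DMSO, at 422, 385 and 493 CPM. Its partner opn1lw1 was at 820.3, 616 and 607 and 362, 591 and 554 CPM (log2 fold change 0.44, SE 0.22, edgeR adjusted p = 0.26), opn1mw3 at 89.8, 117 and 90.03 and 48.4, 107 and 114 CPM (log2 fold change 0.14, SE 0.29, edgeR adjusted p = 0.84), and opn1sw2 at 28.2, 16.8 and 23.5 and 27.9, 33.9 and 36.8 CPM (log2 fold change -0.53, SE 0.26, edgeR adjusted p = 0.24). These last 3, named after their values were seen, did not pass the test, and opn1sw2 leaned the other way. Of the cone transduction genes, GNAT2, the cone transducin, was at 918, 695 and 1007 against 449, 608 and 596 CPM (log2 fold change 0.66, SE 0.19, edgeR adjusted p = 0.049), and gnb3b, its beta subunit, and cngb3.2, a subunit of the cone channel, were higher with PLX3397 by 0.68 and 0.89 on the log2 scale. The list had 3, 9, 4, 2, 3 and 2 calls with the drug libraries left out in order. Without PLX3397 replicate 3, 2 of the 4 were higher with ZVAD-fmk.

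Rod genes gave 1 call in 28, a share of 3.57% against 4.81% of all genes higher with ZVAD-fmk. It was the rod sodium, calcium and potassium exchanger gene SLC24A1, lower with PLX3397 at 3.57, 5.29 and 7.83 against 8.45, 10.7 and 11 CPM (log2 fold change -0.86, SE 0.22, edgeR adjusted p = 0.035). GNAT1, the rod transducin, was at 130.0, 118.7 and 249.9 and 243, 297 and 284 CPM, against 836, 807 and 927 CPM with DMSO (log2 fold change -0.73, SE 0.25, edgeR adjusted p = 0.096). PLX3397 replicate 3 was the highest PLX3397 library for both genes. Without it 11 of 29 rod genes were called, 10 higher with ZVAD-fmk and 1 higher with PLX3397. In that fit 247 and 256 of all 22112 genes tested were called in these directions. Calls numbered 0, 1, 0, 0 and 0 without the other drug libraries in order.

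**Figure D4:**
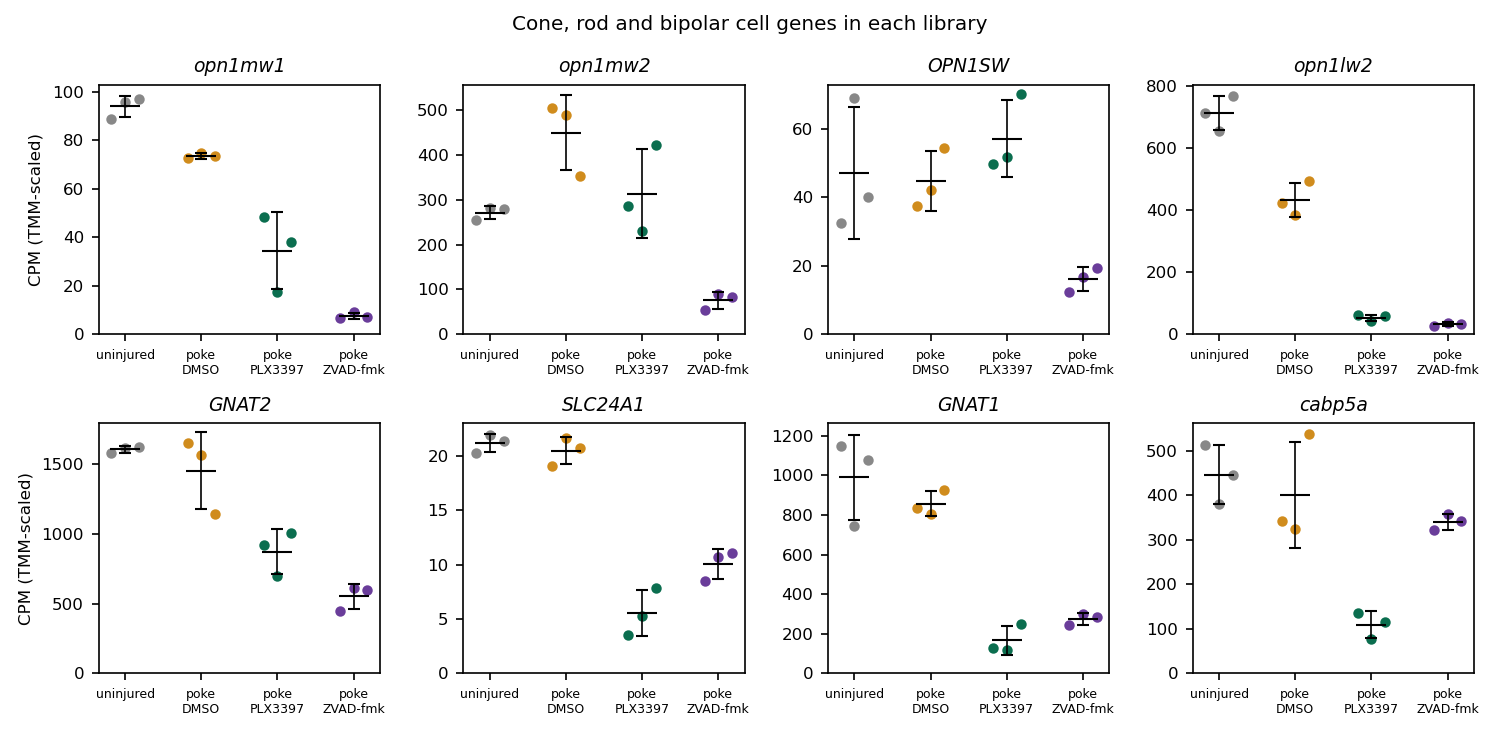
CPM of cone, rod and bipolar cell genes in each library (points) with the mean and SD of each group of 3 (bars). The ZVAD-fmk group is the lowest for opn1mw1, opn1mw2, OPN1SW and GNAT2, both drug groups are below DMSO for opn1lw2, SLC24A1 and GNAT1, and the PLX3397 group is the lowest for cabp5a.

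Bipolar cell genes gave 5 calls in 20, of which 4 were lower with PLX3397, a share of 20% against 4.81% of all genes. The calcium-binding protein gene cabp5a, a marker of bipolar cell types, was at 137, 76.6 and 115 CPM with PLX3397 and 322, 359 and 342 CPM with ZVAD-fmk, 3.12-fold apart (log2 fold change -1.64, SE 0.23, edgeR adjusted p = 0.0029). DMSO and uninjured libraries, at 342, 324 and 539 CPM and 513, 382 and 446 CPM, were near the ZVAD-fmk level or above it. NETO1 (ENSDARG00000068483), an auxiliary subunit of kainate receptors, was at 9.04, 4.22 and 4.31 against 20.4, 18 and 18.1 CPM (log2 fold change -1.68, SE 0.29, edgeR adjusted p = 0.0066). The transcription factor FEZF2 and cabp2a were lower with PLX3397 by -0.99 and -0.79 on the log2 scale. TRPM1, the channel that ON bipolar cells use for the light response, was higher with PLX3397, at 120.0, 55.4 and 85.5 against 41.4, 49.6 and 51.9 CPM (log2 fold change 0.87, SE 0.21, edgeR adjusted p = 0.027). The calls of cabp5a and NETO1 (ENSDARG00000068483) held in all 23 alternative fits, and the list had 6, 4, 2, 2, 2 and 2 calls with the drug libraries left out, and 3 with library totals or with the 6 drug libraries alone.

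Other neurons gave 1 to 3 calls per list, where 3.43% of all genes were higher with PLX3397 and 4.81% with ZVAD-fmk. The shares of retinal ganglion cell genes were 4% and 8%. Amacrine cell genes had 1 in 24, TFAP2C, a transcription factor, at 38.7, 18.2 and 27.9 CPM with PLX3397 and 13.2, 14.6 and 17.2 CPM with ZVAD-fmk (log2 fold change 0.92, SE 0.24, edgeR adjusted p = 0.037). Horizontal cell genes had 1 in 13, tpm3, a tropomyosin, at 120.2, 187 and 145 against 263, 247 and 233 CPM (log2 fold change -0.72, SE 0.17, edgeR adjusted p = 0.024). Retinal ganglion cell genes had 3 in 25, with a median of -0.34: the light neurofilament gene nefla was higher with PLX3397, at 6.29, 9.53 and 4.67 against 3.69, 2.19 and 2.78 CPM (log2 fold change 1.24, SE 0.29, edgeR adjusted p = 0.024), while ALCAM, an adhesion molecule of their axons, was lower, at 18.4, 25.7 and 22.5 against 35.2, 35.7 and 39.2 CPM (log2 fold change -0.73, SE 0.17, edgeR adjusted p = 0.024), as was STMN4 (ENSDARG00000043932). Of 28 genes of synaptic transmission, 1 was called, the glycine receptor gene GLRA1, at 183, 102 and 129.8 against 80.2, 82.7 and 84.5 CPM (log2 fold change 0.75, SE 0.21, edgeR adjusted p = 0.047), and the median was 0.29. Groups overlapped for 27 of the 28, and the median was 0.00079 without PLX3397 replicate 1. Without PLX3397 replicates 1, 2 and 3, amacrine genes had 2, 4 and 0 calls and horizontal cell genes 1, 3 and 0. Ganglion cell genes had 1, 2 and 1, and synaptic genes 0, 6 and 1. Each list of this paragraph had 0 calls without any 1 ZVAD-fmk library. The amacrine median ran from -0.37 to 0.21 with drug libraries left out.

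Axon regeneration and growth cone genes gave 5 calls in 31, all lower with PLX3397, a share of 16.1% against 4.81% of all genes. The called genes were ALCAM, STMN4 (ENSDARG00000043932) and the alpha tubulins TUBA1A, tuba1b and tuba1c. The gene tuba1b was at 142, 236 and 173 CPM with PLX3397 and 336, 348 and 338 CPM with ZVAD-fmk (log2 fold change -0.89, SE 0.16, edgeR adjusted p = 0.0083), and tuba1c at 178, 146 and 198 against 255, 278 and 262 CPM (log2 fold change -0.61, SE 0.16, edgeR adjusted p = 0.034). The growth cone gene gap43 was at 56.4, 22.4 and 66.3 and 77.3, 88.4 and 92.4 CPM, with separate groups and no call (log2 fold change -0.83, SE 0.34, edgeR adjusted p = 0.15), below DMSO at 243, 268 and 242 CPM. Leaving out drug libraries gave 4, 6, 1, 1, 1 and 1 calls in this list, and 2 of the 6 without PLX3397 replicate 2 were higher with PLX3397. Scaling by library totals alone gave 3 calls.

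Genes of cytosolic ribosomal proteins were lower with PLX3397 almost without exception. All 72 tested had a negative log2 fold change, between -1.01 and -0.53, and 56 were called. The ZVAD-fmk libraries lay above the PLX3397 libraries for 71, where they did for 18.7% of all genes. The called share was 77.8%, against 4.81% of all genes, and the median was -0.74. RPS6, of the small subunit, was at 230.1, 354 and 295 CPM with PLX3397 and 525, 460.1 and 429 CPM with ZVAD-fmk (log2 fold change -0.69, SE 0.19, edgeR adjusted p = 0.040). RPL22, of the large subunit, was at 53.4, 61.5 and 43.7 against 109, 114 and 97.4 CPM (log2 fold change -1.01, SE 0.17, edgeR adjusted p = 0.0066), with DMSO at 117, 122 and 177 CPM and uninjured retina at 61.3, 50.04 and 62.2 CPM. For RPL22 the PLX3397 libraries were near uninjured retina and the ZVAD-fmk libraries just below DMSO. As a share of all counts, ribosomal protein genes took 1.19%, 1.67% and 1.29% with PLX3397, 2.19%, 2.21% and 2.14% with ZVAD-fmk, 2.55%, 2.57% and 3.43% with DMSO and 0.93%, 0.83% and 0.93% without injury.

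Nuclear genes of the mitochondrial respiratory chain were lower with PLX3397 as well. All 57 tested had a negative log2 fold change, from -0.83 to -0.22. Of these, 42 were called (73.7%, against 4.81% of all genes). The groups were separate for 53, against 35.5% of all genes. COX4I1, a subunit of cytochrome c oxidase, was at 62.8, 65.8 and 49.3 CPM with PLX3397 and 102, 98.1 and 98.6 CPM with ZVAD-fmk (log2 fold change -0.75, SE 0.12, edgeR adjusted p = 0.0045), and DMSO and uninjured libraries held 129.7, 134 and 145 CPM and 104, 103 and 109.7 CPM. The ATP synthase gene atp5mc1 was at 82.4, 101 and 69.6 against 149.97, 149 and 152 CPM (log2 fold change -0.83, SE 0.13, edgeR adjusted p = 0.0056). For both genes the PLX3397 libraries were below uninjured retina too. Over the list, the mean log2 CPM was 6.11, 6.21 and 5.99 with PLX3397 and 6.69, 6.68 and 6.66 with ZVAD-fmk. It was 7.05, 7.02 and 7.35 with DMSO and 6.96, 7.03 and 6.98 in uninjured retina, so both drugs lay below both controls. RNA from the mitochondrial genome took 2.86%, 3.21% and 2.64% of counts with PLX3397 and 3.63%, 3.65% and 3.53% with ZVAD-fmk.

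The count of called ribosomal protein genes was 7, 72, 3, 3, 3 and 10 with the drug libraries left out in order, all lower with PLX3397, and the median stayed between -0.63 and -0.95. Respiratory chain genes had 34, 42, 20, 22, 17 and 25 calls and medians between -0.53 and -0.63. RPL22, RPS6, COX4I1 and atp5mc1 were lower with PLX3397 under every scaling, and the medians under DESeq2, RLE, upper-quartile and plain total scaling were -0.70 to -0.73 for ribosomal proteins and -0.54 to -0.58 for the respiratory chain. A fit without both lists, added after the values were seen, called 1575 genes, 671 higher with PLX3397 and 904 higher with ZVAD-fmk.

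**Figure D5:**
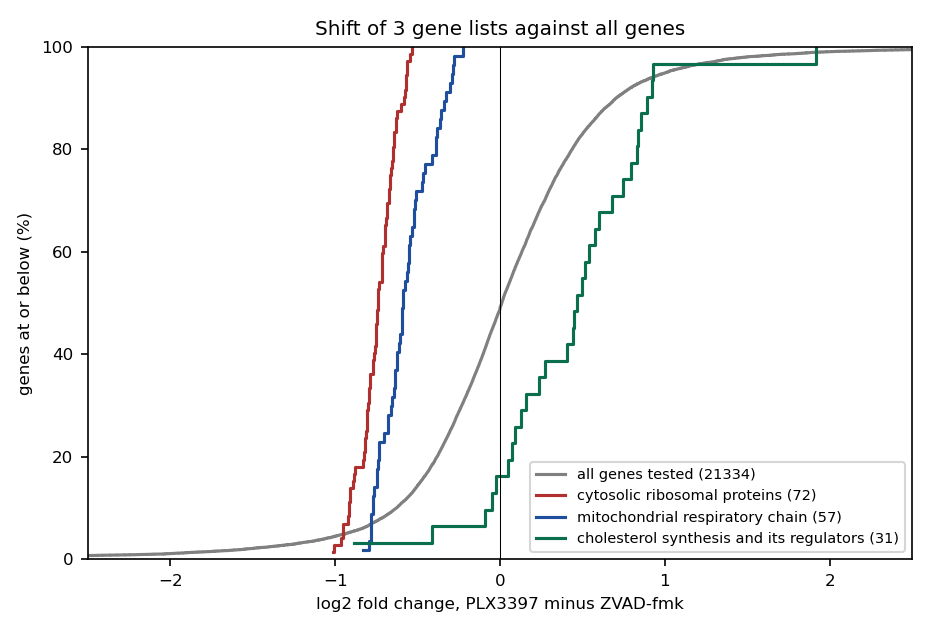
Cumulative share of genes (y axis, percent) at or below a log2 fold change, PLX3397 minus ZVAD-fmk (x axis), for all 21334 genes tested and 3 lists. The whole curves of ribosomal protein and respiratory chain genes lie left of 0, with medians of -0.74 and -0.59, and the curve of cholesterol synthesis genes lies to the right, with a median of 0.47.

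Among cholesterol synthesis genes, the called ones were higher with PLX3397. Of 31 tested, 5 were called, all higher with PLX3397, a share of 16.1% against 3.43% of all genes. PLX3397 libraries lay above for 16 genes and ZVAD-fmk libraries for none, against 16.8% and 18.7% of all genes, and the median was 0.47. LSS, lanosterol synthase, was at 8.27, 14.6 and 9.62 CPM with PLX3397 and 3.21, 2.56 and 2.82 CPM with ZVAD-fmk, 3.78-fold apart (log2 fold change 1.92, SE 0.25, edgeR adjusted p = 0.0024), with DMSO at 3.89, 4.36 and 3.85 CPM and uninjured retina at 33.8, 60.7 and 35.5 CPM. The regulator srebf2, which switches the pathway on when sterols are low, was at 217, 339.7 and 273 against 160.2, 137 and 139 CPM (log2 fold change 0.93, SE 0.19, edgeR adjusted p = 0.015), and MVD, of the mevalonate steps, at 8.64, 9.25 and 7.63 against 4.79, 4.22 and 5.1 CPM (log2 fold change 0.85, SE 0.19, edgeR adjusted p = 0.020). FDFT1, squalene synthase, and DHCR7, which makes cholesterol in the last step, were the other 2, higher by 0.84 and 0.68 on the log2 scale. The uninjured libraries were above both drugs for LSS and MVD. Calls numbered 3, 5, 4, 3, 1 and 1 with drug libraries left out in order, and LSS was called in all 23 alternative fits. Of the 5 calls without PLX3397 replicate 2, 1 was higher with ZVAD-fmk, and the median there was 0.295. Without the 4 libraries that stood apart, 16 were called higher with PLX3397 and 3 higher with ZVAD-fmk, where 2741 and 2939 of all 21560 genes were.

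Clock genes differed in both directions, 6 of 35 higher with PLX3397 and 3 higher with ZVAD-fmk, shares of 17.1% and 8.57% against 3.43% and 4.81% of all genes. The cryptochrome cry3b, a repressor of the clock, was at 153, 211 and 149.96 CPM with PLX3397, 85.5, 68 and 70.4 CPM with ZVAD-fmk and 34, 31.2 and 31 CPM with DMSO (log2 fold change 1.201, SE 0.16, edgeR adjusted p = 0.0022). Its relative cry3a was at 427, 434 and 337 against 217, 215 and 225 CPM (log2 fold change 0.87, SE 0.15, edgeR adjusted p = 0.0066). The gene rorcb, a nuclear receptor that drives bmal genes, was at 256, 158 and 171 against 88.2, 100.2 and 92 CPM (log2 fold change 1.06, SE 0.23, edgeR adjusted p = 0.019), and bmal2, cry4 and nfil3-5 were higher with PLX3397 by 0.71, 0.51 and 1.29 on the log2 scale. Lower with PLX3397 were ciarta, a repressor of the clock, at 25.9, 33.3 and 37.7 against 75.4, 70.29 and 70.9 CPM (log2 fold change -1.16, SE 0.16, edgeR adjusted p = 0.0025), and nfil3-6 and NR1D2, by -0.64 and -0.57. The labels do not give the hour at which each retina was taken. The list had 3, 11, 5, 4, 3 and 3 calls with drug libraries left out.

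Genes of extracellular matrix and proteases gave 8 calls in 56. They were 5 higher with PLX3397 (8.93%) and 3 higher with ZVAD-fmk (5.36%), against 3.43% and 4.81% of all genes. Higher with PLX3397 were the laminins LAMB2, at 7.42, 10.33 and 8.17 against 4.71, 3.01 and 3.81 CPM (log2 fold change 1.17, SE 0.27, edgeR adjusted p = 0.020), and LAMA5, the collagens col4a6 and COL14A1, and the protease ADAMTS1, at 16.4, 25.3 and 17.2 against 11, 7.75 and 7.82 CPM (log2 fold change 1.15, SE 0.25, edgeR adjusted p = 0.018). For the other 3 the log2 differences were 0.77, 0.82 and 0.73. Higher with ZVAD-fmk were PLAT, the tissue plasminogen activator, at 1.47, 2.37 and 1.69 with PLX3397 against 6.13, 6.91 and 6.72 CPM with ZVAD-fmk (log2 fold change -1.84, SE 0.29, edgeR adjusted p = 0.0044), loxl2a, a crosslinker of collagen, and adam10a. PLAT was at 6.14, 5.32 and 7.82 CPM with DMSO and under 1 CPM in uninjured retina, and its call held in all 23 alternative fits. Left-out drug libraries gave 6, 9, 4, 3, 1 and 1 calls.

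The stress lists below gave 5 and 4 calls. Of 38 genes of oxidative stress and the Nrf2 route, 4 were higher with ZVAD-fmk and 1 with PLX3397, shares of 10.5% and 2.63% against 4.81% and 3.43% of all genes, and the median was -0.22. The paralogs of Keap1, the sensor that restrains Nrf2, went opposite ways: keap1a was at 72.1, 132 and 75.6 CPM with PLX3397 and 202, 158 and 162 CPM with ZVAD-fmk (log2 fold change -0.90, SE 0.20, edgeR adjusted p = 0.019), and KEAP1 at 39.2, 44.4 and 42.2 against 27.2, 30.2 and 25.1 CPM (log2 fold change 0.61, SE 0.14, edgeR adjusted p = 0.021). GCLM, of glutathione synthesis, thioredoxin (TXN) and PRDX3 were lower with PLX3397 by -0.90, -0.70 and -0.41 on the log2 scale. Of 45 immediate early and heat shock genes, 4 were called, a share of 8.89%, all higher with ZVAD-fmk: HSPA8 (ENSDARG00000037403), the mitochondrial chaperonins HSPE1 and HSPD1, and KLF9, a target of glucocorticoid and thyroid hormone receptors. KLF9 was at 19.7, 46.2 and 21.8 against 73.8, 54.7 and 54.2 CPM (log2 fold change -1.06, SE 0.27, edgeR adjusted p = 0.031), with PLX3397 replicate 2 the nearest to the ZVAD-fmk libraries. HSPA8 (ENSDARG00000037403) was at 2.68, 2.14 and 3 against 14.2, 4.69 and 5.11 CPM (log2 fold change -1.62, SE 0.40, edgeR adjusted p = 0.028), with ZVAD-fmk replicate 1 well above the rest. The oxidative stress list had 1, 7, 0, 0, 0 and 0 calls with drug libraries left out, and the immediate early and heat shock list 1, 5, 0, 0, 2 and 2. With the 6 drug libraries alone they had 3 and 1. The median of the latter was -0.12 and turned to 0.27 without ZVAD-fmk replicate 1. Without the 4 libraries that stood apart, 11 of its genes were called higher with PLX3397 and 10 higher with ZVAD-fmk, where 2741 and 2939 of all 21560 genes were.

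Metabolic, xenobiotic, unfolded protein and autophagy lists gave 1 or 2 calls each. Their called shares in one direction were at most 5.56%, that of glycolysis genes higher with ZVAD-fmk. Of all genes, 3.43% were higher with PLX3397 and 4.81% higher with ZVAD-fmk, so these shares were near or below those of all genes. Of 18 glycolysis genes 1 was called, PFKFB4, which sets the level of a glycolytic activator, at 27.7, 28.8 and 26.4 CPM with PLX3397 and 55.6, 49.5 and 53 CPM with ZVAD-fmk (log2 fold change -0.93, SE 0.15, edgeR adjusted p = 0.0056). Of 35 lipid droplet and fatty acid genes, FABP3, a fatty acid carrier, was lower with PLX3397 by -0.87 and cpt1ab, which brings fatty acids into mitochondria, higher by 0.60 on the log2 scale. Iron and heme genes gave 2 calls in 31: STEAP4, a metalloreductase, was at 719.8, 936 and 1096 against 664, 519 and 508 CPM (log2 fold change 0.70, SE 0.16, edgeR adjusted p = 0.022), above DMSO at 187, 185 and 187 CPM with both drugs, and tfr1b, the transferrin receptor, was at 87.9, 104 and 76.5 against 128, 128 and 124 CPM (log2 fold change -0.50, SE 0.14, edgeR adjusted p = 0.039). Of 43 xenobiotic genes ahr1b, an aryl hydrocarbon receptor, was called, higher with PLX3397 by 0.62. The unfolded protein list of 47 had ern1, a sensor in the endoplasmic reticulum, higher by 0.63 and CHAC1, which breaks down glutathione, lower by -0.59. Autophagy genes gave 1 call in 30, ATG3, lower with PLX3397 by -0.43. A left-out drug library gave 0 to 4 calls in the lists of this paragraph, except 5 for glycolysis and 13 for the unfolded protein list without PLX3397 replicate 2.

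Of the called genes with a symbol, separate groups and a mean of at least 5 CPM in one drug group, those with the largest differences lay mostly outside the lists. MATN3 (ENSDARG00000069245), a matrilin of the extracellular matrix, was at 21.5, 36.5 and 27.7 CPM with PLX3397 and 4.76, 4.2 and 3.61 CPM with ZVAD-fmk, 6.81-fold apart (log2 fold change 2.77, SE 0.24, edgeR adjusted p = 0.00053). DMSO held 3.44, 4.97 and 3.01 CPM and uninjured retina 21.5, 26.2 and 20.1 CPM, so the PLX3397 libraries were near or above the uninjured ones and the ZVAD-fmk libraries near DMSO. In contrast, tmprss15, which encodes enteropeptidase, a protease of the gut, was high with PLX3397 alone: 36, 26 and 21.6 CPM with PLX3397 stood above ZVAD-fmk at 6.43, 4.91 and 6.02, DMSO at 6.15, 7.4 and 4.67 and uninjured retina at 3.31, 5.74 and 3.37 CPM (log2 fold change 2.27, SE 0.26, edgeR adjusted p = 0.0018). PAMR1 (ENSDARG00000093480), a secreted protein first tied to muscle regeneration, was likewise high with PLX3397 alone, at 19.4, 23.05 and 18.8 against 4.35, 5.14 and 4.87 CPM (log2 fold change 2.09, SE 0.23, edgeR adjusted p = 0.0018). Also higher with PLX3397 were tmem116, HKDC1, a hexokinase, and ELF3, an epithelial transcription factor, by 1.87, 1.86 and 1.88 on the log2 scale.

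Among genes higher with ZVAD-fmk, UCP2, a carrier of the inner mitochondrial membrane, was at 25, 28 and 15 CPM with PLX3397 and 100.1, 93.1 and 89.8 CPM with ZVAD-fmk, 4.16-fold apart (log2 fold change -2.06, SE 0.25, edgeR adjusted p = 0.0020). DMSO was at 97.8, 94.2 and 129.8 CPM and uninjured retina at 29.1, 56.8 and 39.1 CPM. KCNG4, a potassium channel subunit that modifies other channels, was at 2.05, 1.85 and 1.99 against 6.56, 7.03 and 7.47 CPM (log2 fold change -1.84, SE 0.21, edgeR adjusted p = 0.0018). The splicing factor gene srsf3a and the somatostatin gene sst7 were lower with PLX3397 by -2.06 and -1.98 on the log2 scale. The genes si:dkey-7i4.24 and si:dkey-119g10.3, whose roles the annotation does not give, had no count in uninjured retina and were lower with PLX3397 by -2.48 and -2.37. The remaining genes of this group were mrc1b, lgals3bp.1, PLAT and the globin HBE1 (ENSDARG00000097238), at 4.26, 3.19 and 1.89 against 20.7, 13.3 and 15.14 CPM (log2 fold change -2.39, SE 0.66, edgeR adjusted p = 0.044). The calls of MATN3 (ENSDARG00000069245), tmprss15, PAMR1 (ENSDARG00000093480), tmem116, HKDC1, UCP2, KCNG4 and srsf3a held in all 23 alternative fits.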

How the data were processed

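The tools named in the submitters' processing notes are RSEM 1.3.3, STAR 2.7.8a, FastQC 0.11.8 and cutadapt 4.8, with the genome build GRCz11; strand setting and annotation release are not given in the sources used here. The deposited table holds expected counts per gene as whole numbers, unscaled and not pooled. Of its 21 columns, 12 matched samples by library name and 9 were not used. It lists 32520 Ensembl genes and 4 transgenes, which stayed out of the fits; symbols came from a table that covers 29201 IDs.

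Counts of 4 groups of 3 were rounded and fitted with edgeR 4.0.16 (quasi-likelihood, robust, two-sided, TMM, 1 mean per group) in R 4.3.3, after filterByExpr kept 21334 of 25975 genes. Genes with Benjamini-Hochberg adjusted p under 0.05 were called. CPM are TMM-scaled; log2 fold changes are PLX3397 minus ZVAD-fmk. Standard errors come from the F statistic, and floors cover counting error only. The fit was tested on simulated data. Alternatives were DESeq2 1.42.0, limma 3.58.1 voom, other scalings, no filter, the 6 drug libraries, a replicate block and left-out libraries. No 2 libraries of a drug were copies (lowest chi-square per degree of freedom 7.73).

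Members and lists were chosen with earlier results of these data known. Of 1817 list entries 1467 matched a gene. Named genes are the 10 with the largest change in each direction among called genes that have a symbol, do not overlap between drugs and have a mean of at least 5 CPM, the 3 most changed called genes of each list in each direction, and each list's core genes. Another 24 were named after their values were seen, among them CDC20, CENPF, TUBA1A, HSPD1, CAV1, ptgdsb.2, cabp2a, gnb3b, tuba1c, DHCR7, FDFT1, PRDX3, cry4, bmal2, cry3a, LAMA5, COL14A1 and several opsins. Some genes and 1 list are not reported here.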

Additional observations from a re-analysis of the deposited data

How the results depend on the processing

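Over all genes, 1758 were called (732 higher with PLX3397, 1026 higher with ZVAD-fmk). The counts were 1753 (824 and 929) with RLE factors, 1710 (759 and 951) with library totals, 1890 (897 and 993) with upper-quartile factors, 1513 (627 and 886) with no low-count filter, 2131 (889 and 1242) with limma voom and 2130 (1066 and 1064) with the 6 drug libraries alone. They moved by over 1.5 times under DESeq2, to 3098 (1474 and 1624), without the 4 libraries that stood apart (DMSO replicate 3, PLX3397 replicate 2, ZVAD-fmk replicate 1, uninjured replicate 2), to 5680 (2741 and 2939), and without DMSO replicate 3 and uninjured replicate 2, to 3700 (1942 and 1758). Without any single library they ranged from 282 to 2645 in all, 137 to 1187 higher with PLX3397 and 145 to 1596 higher with ZVAD-fmk. The causes of these changes were not tested. The labels state no pairing behind the replicate numbers. Deviations of same-numbered PLX3397 and ZVAD-fmk libraries correlated at -0.11, -0.07 and 0.02. Those of PLX3397 libraries correlated with uninjured ones at 0.14, 0.16 and 0.02, and with DMSO ones at 0.15, -0.13 and -0.03. With 3 libraries per group, these values cannot show whether samples were paired. A replicate block called 1457 genes (590 and 867).

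All 134 called genes named in the text kept their direction in every setting run, 29 of them were called in every setting and 81 in every setting that kept all 12 libraries or the 6 drug libraries. As 1754 of the 1758 called genes had separate drug groups, a kept direction was nearly fixed by the call and says little more. Of 24 named genes not called, 5 changed sign. Without the 4 libraries the log2 fold change was -0.15 for casp8, -0.37 for ascl1a, 0.0085 for CASP9 and -0.28 for opn1mw3, which there passed the threshold in the opposite direction (edgeR adjusted p = 0.032). Those 4 were chosen by how they lay in these same data, which narrows the spread, so this p is not a fair test. The log2 fold change was 0.0093 for CASP9 with library totals and -0.024 for ascl1a with the replicate block. Without any single library it ranged from -0.26 to 0.40 for casp8, -0.19 to 0.15 for CASP9, -0.35 to 0.057 for PCNA, -0.54 to 0.48 for ascl1a and -0.15 to 0.35 for opn1mw3. Of 43 list medians, 11 moved by more than the spread between replicates in some setting. At this depth csf1rb and hbaa2, under 1 CPM, rest on few counts.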

Other observations

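Genes of glia, vessels, blood and tissues around the neural retina gave 0 to 3 calls per list. Of 16 oligodendrocyte and myelin genes, 2 were lower with PLX3397 (12.5%) and 1 higher (6.25%), against 4.81% and 3.43% of all genes. The median was -0.68, and the mean log2 CPM was 1.67, 1.81 and 1.47 with PLX3397 against 2.3, 2.25 and 2.09 with ZVAD-fmk. The myelin gene mag was at 10.4, 8.28 and 10.4 CPM with PLX3397 and 18.7, 17.1 and 15.11 CPM with ZVAD-fmk (log2 fold change -0.81, SE 0.22, edgeR adjusted p = 0.042), cnp at 25.7, 30.6 and 33.7 against 49.8, 50.7 and 47.2 CPM (log2 fold change -0.72, SE 0.16, edgeR adjusted p = 0.019), and TSPAN2 was higher with PLX3397, at 142, 159 and 122 against 94, 87.6 and 91 CPM (log2 fold change 0.63, SE 0.15, edgeR adjusted p = 0.024). Of 33 endothelial and mural genes, 1 was called (3.03%, against 4.81% of all genes): TAGLN (ENSDARG00000045408), an actin-binding protein of smooth muscle, at 6.83, 10.2 and 5.23 against 21.7, 25.5 and 23.4 CPM (log2 fold change -1.66, SE 0.37, edgeR adjusted p = 0.019). The hemoglobin gene hbaa2 had no count with PLX3397, where 3 counts over the group set the floor, so it was at least 32.9-fold higher with ZVAD-fmk, at a mean of 0.589 CPM (edgeR adjusted p = 0.023). Of 13 neutrophil genes 1 was called, ABCB9, higher with PLX3397 by 0.71, a share of 7.69% against 3.43% of all genes. However, 11 of the 13 had a negative log2 fold change and the median was -0.89. ZVAD-fmk libraries lay above for 6 and PLX3397 libraries for 2, where they did for 18.7% and 16.8% of all genes. Of 14 lymphocyte genes, edgeR called 0 and 3 had an unadjusted p under 0.05, and DESeq2 called 0. The lens list had 1 call in 14 (7.14%, against 4.81% of all genes), CRYBB2, at 17.1, 24.9 and 19.7 against 40.8, 37.4 and 36.3 CPM (log2 fold change -0.89, SE 0.20, edgeR adjusted p = 0.019). The pigment list had 2 in 22, BEST1 higher with PLX3397 by 0.99 and gch2 lower by -1.54. Each was a share of 4.55%, against 3.43% and 4.81% of all genes. With a drug library left out, each of these lists had at most 3 calls. The part of blood, vessel, myelin or lens tissue taken along with the retina was not tested.

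FKBP5, a chaperone gene that glucocorticoids induce in mammals, was noticed after its values were seen. It was at 287, 369.7 and 251 CPM with PLX3397, 993, 751 and 739 CPM with ZVAD-fmk, 767, 764 and 608 CPM with DMSO and 1082, 1076 and 1104 CPM in uninjured retina (log2 fold change -1.45, SE 0.18, edgeR adjusted p = 0.0020), so the PLX3397 libraries were the low ones, and the call held in all 23 alternative fits. Of microglial genes that were not called, spp1 and ccl34b.1, also noticed afterwards, had the most negative log2 fold changes, -3.01 and -2.68, at levels under 2 CPM in every drug library.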
